A study of Mus musculus with 36 samples.

Results

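The troponin locus described here is a stretch of mouse chromosome 1 that holds Tnni1 and Tnnt2, and the data are its accessible regions in cells undergoing direct cardiac reprogramming. All regions of a deposited count table that overlap 137670000 to 137770000 on chromosome 1 (build mm9) were taken, with Tnni1 placed at about 137696000 to 137707000 and Tnnt2 at about 137732900 to 137748800. This gave 74 of the 1393120 regions in the table, named R1 to R74 in order of position. R1 starts at 137670040, inside the stretch, and R74 runs to 137772017, past its end. The locus was chosen from its accessibility levels in these same libraries, so its levels and its differences from fibroblasts are given as a description and support no inference.

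The assay was ATAC-seq: a transposase cuts open chromatin and leaves sequencing adapters there. The cells came from explant cultures of neonatal hearts of Cd-1 mice that carry an alpha-MHC-GFP reporter, a green fluorescent protein driven by a promoter of cardiac myosin heavy chain, and they were Thy1-positive and GFP-negative when infected. The reprogrammed groups received retroviruses for Gata4, Mef2c and Tbx5 (GMT) plus the chemicals sb431542, which blocks TGF-beta receptors, and xav939, which dampens Wnt signals. GFP-positive cells were harvested by sorting at days 2, 3, 7, 14 and 21. The fibroblast group received a dsRed virus and no inhibitor, carried the same reporter, and was sorted for dsRed at day 7. Each of the 6 groups had 3 libraries. Factors, inhibitors and the sort therefore cannot be told apart in any comparison with fibroblasts, and time in culture cannot be told apart from them at days other than 7. The labels state biological replicates without naming litters or cultures, so the spread between libraries may be partly technical.

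Troponin is the calcium switch of the thin filament of striated muscle. Tnnt2 encodes cardiac troponin T, the subunit that anchors the complex to tropomyosin, and is among the early markers of cardiomyocytes. Tnni1 encodes slow skeletal troponin I, an inhibitory subunit of the troponin complex that the fetal and neonatal heart also uses before cardiac troponin I takes its place. In the RefSeq gene order of the GRCm38 assembly, the genes at and around both troponin genes run Csrp1, Phlda3, Tnni1, Lad1, Tnnt2, Pkp1 and Igfn1. Lad1, which encodes ladinin, thus lies between both troponin genes. Pkp1, which encodes the desmosomal protein plakophilin, is the next protein-coding gene after Tnnt2. Whether the outer genes reach into the stretch taken here was not determined. The starts assigned to Tnni1 and Tnnt2 lie 36.9 kb apart in mm9, and the first RefSeq starts of the same genes on GRCm38.p6 also lie 36.9 kb apart.

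The promoters of both genes are shown because the regions at their starts contrasted in level. Each run covers 250 bases before to 50 bases after a start, from RefSeq on GRCm38.p6, plus strand, 5′ to 3′, at chr1:135836084-135836383 for Tnnt2 and chr1:135799171-135799470 for Tnni1. Capitals mark matches, on either strand, to 5 motifs. Searched were AGATAA, which factors of the GATA family bind, TAAAAATA, a core of MEF2 sites, AGGTGT, which T-box factors bind, CATTCC, the core of the muscle element M-CAT that TEAD factors bind, and TATAAA, the letters of the box at which transcription initiation complexes form.
Tnnt2: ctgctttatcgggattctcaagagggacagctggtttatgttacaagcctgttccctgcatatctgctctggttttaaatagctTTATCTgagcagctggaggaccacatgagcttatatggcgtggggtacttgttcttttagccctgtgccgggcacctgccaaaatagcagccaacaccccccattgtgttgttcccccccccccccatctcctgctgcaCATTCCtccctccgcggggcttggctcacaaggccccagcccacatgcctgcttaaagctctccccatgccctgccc
Tnni1: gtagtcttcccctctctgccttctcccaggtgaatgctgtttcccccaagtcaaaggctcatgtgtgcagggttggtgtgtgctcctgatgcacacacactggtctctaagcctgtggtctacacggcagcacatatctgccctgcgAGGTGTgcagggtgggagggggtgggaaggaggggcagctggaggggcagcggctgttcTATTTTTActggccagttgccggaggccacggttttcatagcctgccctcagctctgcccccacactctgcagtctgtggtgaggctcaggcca
The Tnnt2 window held a GATA match on the minus strand, 166 bases before the start, and an M-CAT match 27 bases before it. The Tnni1 window held a T-box match 103 bases before the start and a MEF2 core on the minus strand 44 bases before it. No matches overlapped. Among 32851 RefSeq promoter windows of this length, 11.2% held the GATA motif, 14.7% the M-CAT motif, 13.7% the T-box motif, 2.72% the MEF2 core and 13.6% the TATA box. RefSeq listed 2 windows for each gene. The other Tnnt2 window held no match, and the other Tnni1 window overlaps the one shown and held the same pair of matches. A match is a description of letters, and these windows were not placed on the mm9 regions by coordinate.

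Table totals ran from 2.29 to 23.2 M counts per library, of which 359 to 11123 fell in the locus, and 1 region of the table took 4.52 to 49.4% of a total. Levels are given as CPM, that is counts per M of an effective library size scaled by trimmed means of log ratios, with the SD over 3 libraries. On principal components of all tested regions 3 libraries stood apart: replicate 1 of days 2 and 3 on the second (-262.1 and -241.1, with the others at -33.4 or above) and replicate 3 of day 14 on the third (-233.8, with the others at -80.3 or above). Sums, shares, calls and the fold changes of the most accessible regions are also given without these 3. Fibroblast replicate 3, which enters every comparison with fibroblasts, also differed from the other fibroblast libraries. On the third component it was at 105.3, against -58.3 and -65.5. Its scaling factor was 1.19, against 0.632 and 0.638, and 1 region took 14.5% of its total, against 49.4 and 49.3%. In bulk libraries, fewer cells with an open region and less opening in each cell cannot be told apart.

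The locus as a whole was more accessible in GMT cells than in fibroblasts from the first day measured. The CPM of all 74 regions together was 260.9, 531 and 437 in the day 2 libraries, 212, 411 and 369 at day 3, 399, 418 and 374 at day 7, 358, 328 and 192 at day 14 and 288, 406 and 534 at day 21, against 128, 135 and 129 in fibroblasts. No GMT library overlapped the fibroblasts, and the lowest was day 14 replicate 3. The means were 3.13, 2.53, 3.04, 2.24 and 3.13 times that of fibroblasts at days 2, 3, 7, 14 and 21. On the log2 scale the ratio was 1.65 at day 2 and 2.01 without its replicate 1, 1.34 at day 3 and 1.69 without its replicate 1, and 1.16 at day 14 and 1.51 without its replicate 3.

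**Figure D1:**
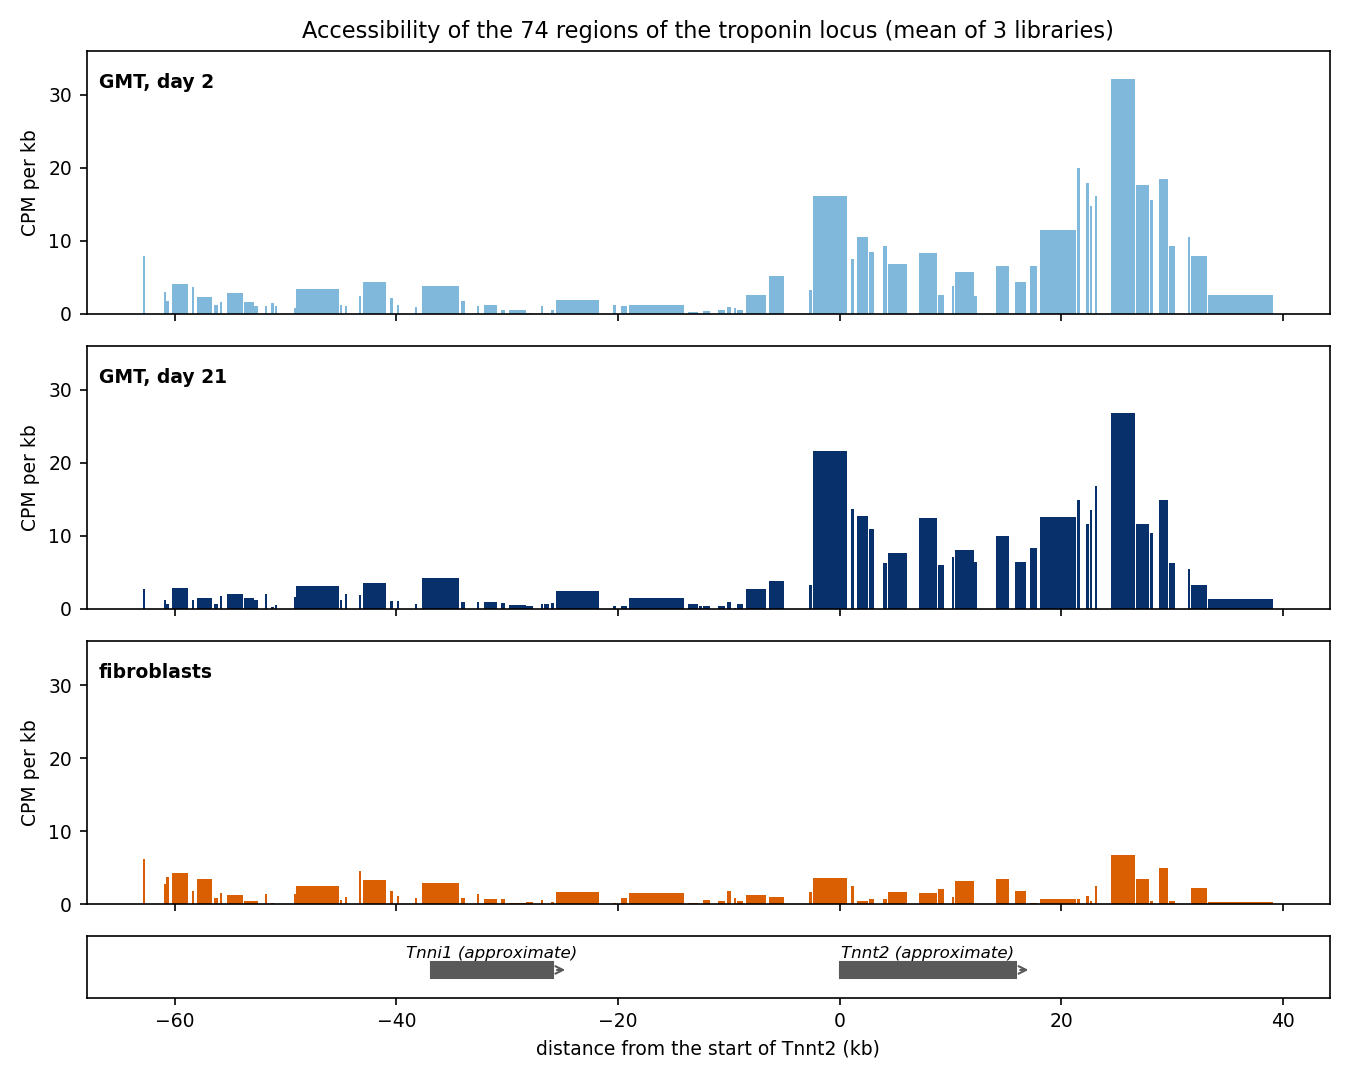
Mean level per region, in CPM per kb of region width (vertical axis), against distance from the Tnnt2 start in kb, for GMT cells at days 2 and 21 and for fibroblasts. Each bar is 1 of the 74 regions, drawn at its own width, and the boxes below mark both genes. The tall bars stand over Tnnt2 and beyond its end at both GMT days, the tallest being R67 at 25.5 kb, while bars around Tnni1 are of similar height in all panels.

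The gain lay over Tnnt2 and beyond its end, and little of it over Tnni1. Regions were grouped by position into 23 upstream of Tnni1, 10 over Tnni1, 14 between the genes, 13 over Tnnt2 and 14 downstream of Tnnt2, each gene taken with any region overlapping it. Over Tnnt2 the summed level was 118 ± 25.1 CPM at day 2, 113 ± 30.2 at day 3, 164 ± 25.5 at day 7, 121 ± 36.3 at day 14 and 160 ± 32.0 at day 21, against 30.7 ± 4.02 in fibroblasts (SD, n = 3 each), which is 3.84, 3.67, 5.36, 3.96 and 5.23 times the fibroblast mean. Downstream of Tnnt2 it was 204 ± 101, 142 ± 55.8, 145 ± 6.24, 90.9 ± 40.1 and 166 ± 89.3 CPM at days 2, 3, 7, 14 and 21, against 31.5 ± 1.54 in fibroblasts, which is 6.47, 4.50, 4.62, 2.89 and 5.27 times. The SD of these downstream sums was 49.4, 39.3, 44.1 and 53.7% of the mean at days 2, 3, 14 and 21, against 4.29% at day 7. In the day 2 libraries the sums were 87.7, 267 and 256 CPM, in the day 14 libraries 123, 104 and 45.9 and in the day 21 libraries 74.9, 170 and 253, against 29.7, 32.4 and 32.4 in fibroblasts, so every one of these libraries lay above all fibroblasts while those of 1 day differed widely from each other. Without replicate 1, the downstream sum was 8.31 times the fibroblast mean at day 2 and 5.44 times at day 3, and the Tnnt2 sum 4.12 and 4.24 times. Without day 14 replicate 3, the mean of day 14 was 113 CPM downstream and 140.01 CPM over Tnnt2, the second of these 4.57 times the fibroblast mean.

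By contrast the sums over Tnni1 were 1.25 to 1.49 times the fibroblast mean over the 5 days, those between the genes 1.25 to 1.495 times and those upstream of Tnni1 0.96 to 1.21 times. Without the 3 libraries that stood apart, the Tnni1 sums were 1.57, 1.62 and 1.40 times the fibroblast mean at days 2, 3 and 14. Over Tnni1 the GMT libraries ran from 7.65 to 21.3 CPM, against 11.3 to 12.6 CPM in fibroblasts, and the groups overlapped except at days 7 and 21. Between the genes they overlapped at days 2 and 3 and not at days 7, 14 and 21, where the lowest libraries had 28.2, 24.0 and 29.5 CPM, against 20.2 to 21.5 CPM in fibroblasts. Within each library, where no scaling enters, Tnnt2 regions summed to 2.38 to 6.04 times the regions upstream of Tnni1 in the 15 GMT libraries, against 0.712 to 0.980 times in the 3 fibroblast libraries. The share of the locus' counts downstream of Tnnt2 was 47.6 ± 12.8% at day 2, 42.2 ± 4.32% at day 3, 36.7 ± 1.30% at day 7, 30.0 ± 5.41% at day 14 and 38.5 ± 11.1% at day 21, against 24.1 ± 0.903% in fibroblasts. The share over Tnnt2 itself was 30.1 ± 7.47% at day 2, 34.5 ± 2.19% at day 3 and 40.1 to 41.7% on average from day 7 on, against 23.4 ± 2.56% in fibroblasts. Without the 3 libraries that stood apart, days 2, 3 and 14 had downstream shares of 54.5, 43.8 and 33.0% and Tnnt2 shares of 25.9, 33.4 and 40.7%.

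**Figure D2:**
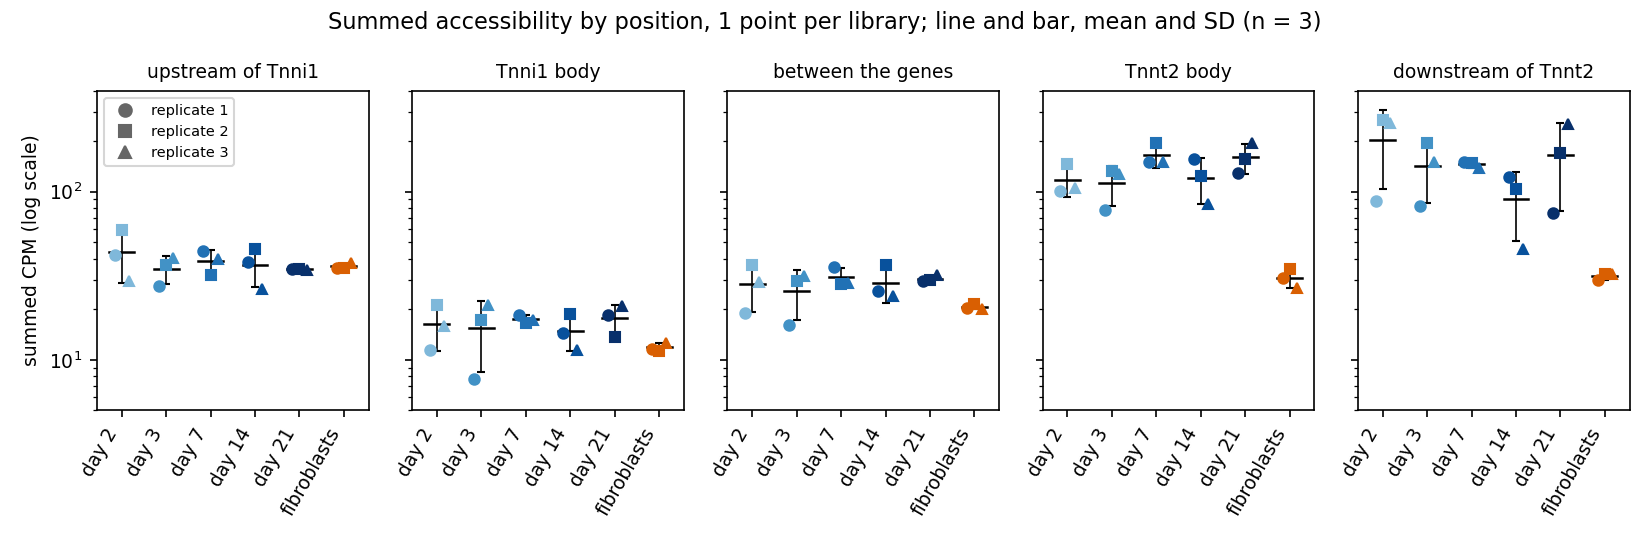
Summed level (CPM, log scale) of the regions in each of 5 positions. Each point is 1 library, with circles, squares and triangles for replicates 1, 2 and 3, the line is the mean and the bar the SD of 3 libraries. GMT and fibroblast libraries are apart over Tnnt2 and downstream of it and overlap at some days in each of the other positions, and downstream of Tnnt2 the libraries of days 2, 3, 14 and 21 spread widely while those of day 7 lie close together.

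A quasi-likelihood fit over all 18 libraries (edgeR) tested 144810 regions of the table, and a region was called at a Benjamini-Hochberg adjusted p under 0.05 over all of them. In the locus 41 regions passed the filter on low counts, namely 7 upstream of Tnni1, 2 over it, 5 between the genes, all 13 over Tnnt2 and all 14 downstream. The 33 others held 12 to 95 counts over all libraries and at most 0.542 CPM on average. Regions near this limit can pass through the GMT libraries alone, so the tested regions are not the whole locus. Of the 41, at day 2 27 were called higher than in fibroblasts, where 12.2% of all regions tested were, at day 3 22 (13.2%), at day 7 24 (15.5%), at day 14 17 (12.8%) and at day 21 28 (13.3%). 1 region, R4 upstream of Tnni1, was called lower, at day 14, where 9.7% of all regions were called lower. That call held in 5 of 14 alternative settings, 2 of which are the same fit without day 14 replicate 3. It was lost, among others, in that fit, with any fibroblast library left out and with library totals alone. As these contrasts were in view when the locus was chosen, and all 5 share the same fibroblast libraries, nothing is read from the counts. Day 2 had 30 and day 3 had 28 calls without replicate 1 of both days. Day 14 had 24 calls, all higher, without its replicate 3, and 11 in all without fibroblast replicate 1. Without fibroblast replicate 3, 27, 19, 22, 16 and 27 regions were called at days 2, 3, 7, 14 and 21, all higher. With library totals in place of the trimmed-mean scaling, 33, 31, 28, 27 and 33 regions were called higher at days 2, 3, 7, 14 and 21, and none lower. That scaling also raised the median log2 fold change of all regions tested, to between 0.30 and 0.66. The share of all regions called was not taken for any alternative fit, so these counts have no comparator.

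The median log2 fold change of the 41 regions was 2.10, 1.94, 1.65, 1.47 and 2.01 at days 2, 3, 7, 14 and 21, against medians of -0.0071 to 0.068 over all regions tested. With the 2 regions that had no fibroblast counts, R58 and R72, set to their lower bound, the medians were 2.06, 1.94, 1.60, 1.44 and 2.01. Regions called higher at all 5 days numbered 15 of 41, where 7.12% of all regions tested were: 8 of 13 over Tnnt2, 6 of 14 downstream, 1 of 5 between the genes and 0 of the 9 others. The 8 over Tnnt2 include R58, which passed the filter through GMT libraries alone. At day 14 it overlapped fibroblasts, as its lowest library also had 0 CPM. Of the 15, 7 kept the call at every day under every alternative run, 5 over Tnnt2 and 2 downstream (R62 and R67). The one between the genes was R46, 137726487 to 137727824, centred at -5.74 kb from the Tnnt2 start. It had 6.97 ± 1.01, 6.20 ± 1.60, 5.91 ± 1.47, 4.01 ± 2.69 and 5.10 ± 1.62 CPM at days 2, 3, 7, 14 and 21, against 1.34 ± 0.135 in fibroblasts (SD, n = 3 each). R46 lost its day 14 call without fibroblast replicate 1 and without day 14 replicate 2. Going from Tnni1 towards Tnnt2, the first region to keep its call at every day in all alternatives was R48, at the Tnnt2 start.

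**Figure D3:**
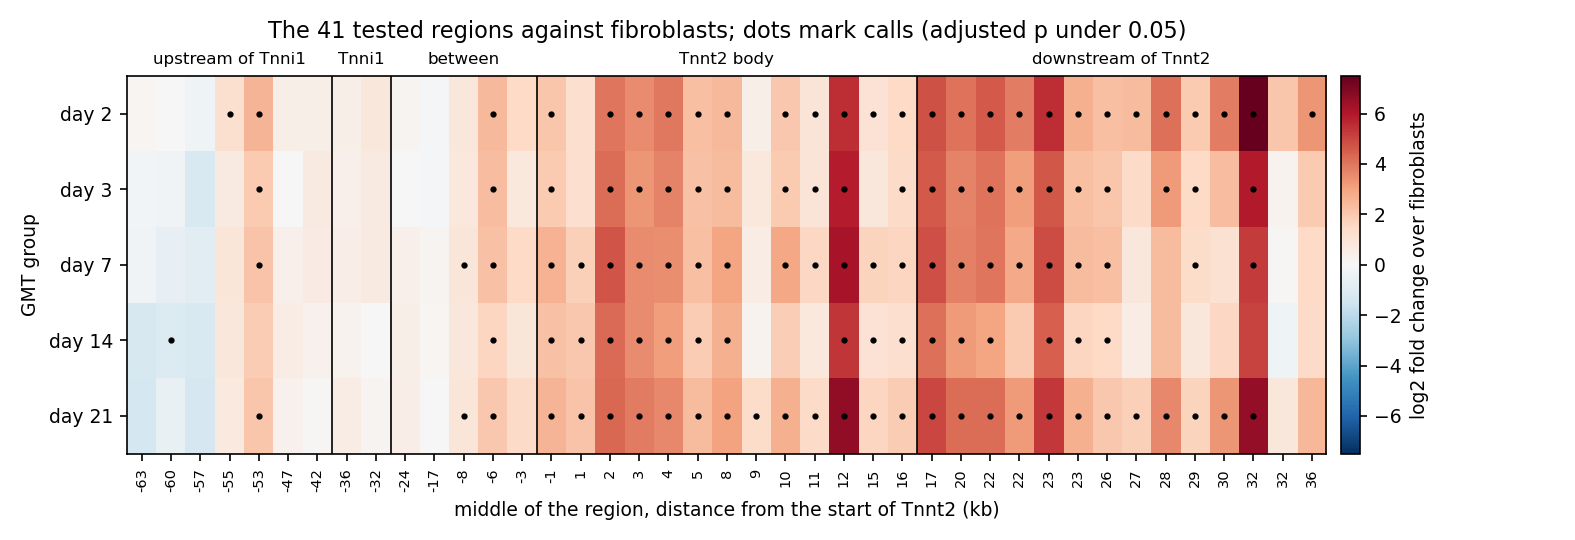
Fitted log2 fold change over fibroblasts (colour) of the 41 tested regions, 1 column each in order of position, labelled by its middle in kb from the Tnnt2 start, with 1 row per GMT day. Dots mark called regions. From R46 on most columns hold dots, against R4, R9, R10 and R45 alone before it, and the darkest columns, R58 and R72, had no fibroblast counts, so their colour depends on the fit's prior count and is no estimate of size.

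The region at the Tnnt2 start, R48, spans 137730518 to 137733557 and takes in the promoter end of the gene. It had 44.2, 58.5 and 43.8 CPM in the day 2 libraries, 33.2, 48.5 and 52.0 at day 3, 64.4, 77.4 and 64.3 at day 7, 67.9, 50.8 and 40.6 at day 14 and 61.6, 55.5 and 80.2 at day 21, against 13.9, 12.5 and 6.85 in fibroblasts. Every GMT library lay above every fibroblast library, and the GMT days overlapped one another, except that day 7 lay above days 2 and 3 and day 21 above day 3. The fitted log2 fold change against fibroblasts was 2.10 at day 2, 1.98 at day 3, 2.59 at day 7, 2.23 at day 14 and 2.53 at day 21, each with an SE of 0.34. It was 2.22 and 2.20 at days 2 and 3 without replicate 1 and 2.50 at day 14 without replicate 3. In order of mean level the groups ran day 7 (68.7 CPM), day 21 (65.8), day 14 (53.1), day 2 (48.8), day 3 (44.6) and fibroblasts (11.1), and only the step down to fibroblasts, between neighbours in this order, had no overlap between libraries.

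The region at the Tnni1 start, R24, spans 137695197 to 137698500, the promoter end of the slow troponin I gene. It had 9.28, 16.4 and 12.4 CPM in the day 2 libraries, 5.28, 13.1 and 17.4 at day 3, 13.6, 13.1 and 14.2 at day 7, 11.2, 15.3 and 7.37 at day 14 and 15.2, 10.2 and 16.6 at day 21, against 9.03, 9.25 and 10.8 in fibroblasts. Only the day 7 libraries lay wholly above the fibroblasts. The fitted log2 fold changes were 0.44 (SE 0.32), 0.38 (0.31), 0.51 (0.31), 0.25 (0.32) and 0.56 (0.31) at days 2, 3, 7, 14 and 21, and none was called. Without the libraries that stood apart they were 0.69, 0.77 and 0.57 at days 2, 3 and 14. R24 was called higher at day 3 without replicate 1 of days 2 and 3, and at day 21 with library totals in place of the trimmed-mean scaling. Within a library, R48 held 2.99 to 6.30 times the counts of R24 in the 15 GMT libraries, against 0.633 to 1.54 times in fibroblasts. The other tested region over Tnni1, R27, was not called at any day either.

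Inside Tnnt2, the region with the next highest level was R54, 137740090 to 137741701, centred 8.00 kb after the start. It had 6.72, 18.7 and 14.5 CPM in the day 2 libraries and 14.2, 20.9 and 25.0 in the day 21 libraries, against 2.92, 1.85 and 2.52 in fibroblasts. The log2 fold changes at days 2, 3, 7, 14 and 21 were 2.45, 2.40, 2.98, 2.69 and 2.99, with SEs of 0.38 to 0.39. The low day 2 value is that of replicate 1, and the same replicate of day 3 was also low, at 6.33 CPM, yet both lay above all fibroblasts. Without the libraries that stood apart, the log2 fold changes of R54 were 2.79, 2.74 and 3.02 at days 2, 3 and 14. R50, 137734435 to 137735435, named here after its values were seen, had 12.5, 10.2 and 8.96 CPM in the day 2 libraries and 10.3, 13.4 and 14.7 in the day 21 libraries, against 0.912, 0.463 and 0 CPM in fibroblasts, where it was nearly closed. Its log2 fold changes ran from 4.02 at day 2 to 4.71 at day 7. All 13 regions over Tnnt2 were called higher at day 21, where 13.3% of all regions tested were. Among these, R55 kept its call in 8 of 13 alternative settings, and R58 had no fibroblast count. In the whole locus, 30 of 41 were called higher at 1 day or more, where 21.1% of all regions tested were.

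Downstream of Tnnt2 lay the region with the highest level of the locus. R67, 137757333 to 137759512, is centred 25.5 kb after the Tnnt2 start, which puts it past the gene's end. It had 33.3, 85.1 and 91.5 CPM in the day 2 libraries, 38.5, 76.0 and 66.1 at day 3, 77.1, 57.7 and 71.6 at day 7, 52.4, 45.1 and 22.3 at day 14 and 36.3, 49.5 and 89.4 at day 21, against 14.1, 13.9 and 15.9 in fibroblasts. It was thus already open in fibroblasts at a level above that of the wider R48 in each of those libraries, and no GMT library overlapped them. Its log2 fold changes at days 2, 3, 7, 14 and 21 were 2.27, 2.05, 2.24, 1.47 and 2.01, with SEs of 0.37 to 0.38. At days 2, 3 and 14 they were 2.67, 2.37 and 1.86 without the libraries that stood apart.

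R62, 137750996 to 137754246, centred 19.7 kb after the start, differed from R67 in being low in fibroblasts. It had 14.7, 58.9 and 38.5 CPM in the day 2 libraries, 11.1, 44.5 and 33.4 at day 3, 26.0, 48.1 and 21.5 at day 7, 32.0, 20.4 and 7.60 at day 14 and 17.7, 55.7 and 49.5 at day 21, against 2.19, 3.01 and 1.44 in fibroblasts. The 3 libraries that stood apart gave the lowest value of their own days. The log2 fold changes were 4.06, 3.73, 3.80, 3.17 and 4.17 at days 2, 3, 7, 14 and 21, with an SE of 0.72, and 4.50, 4.17 and 3.64 at days 2, 3 and 14 without those libraries.

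**Figure D4:**
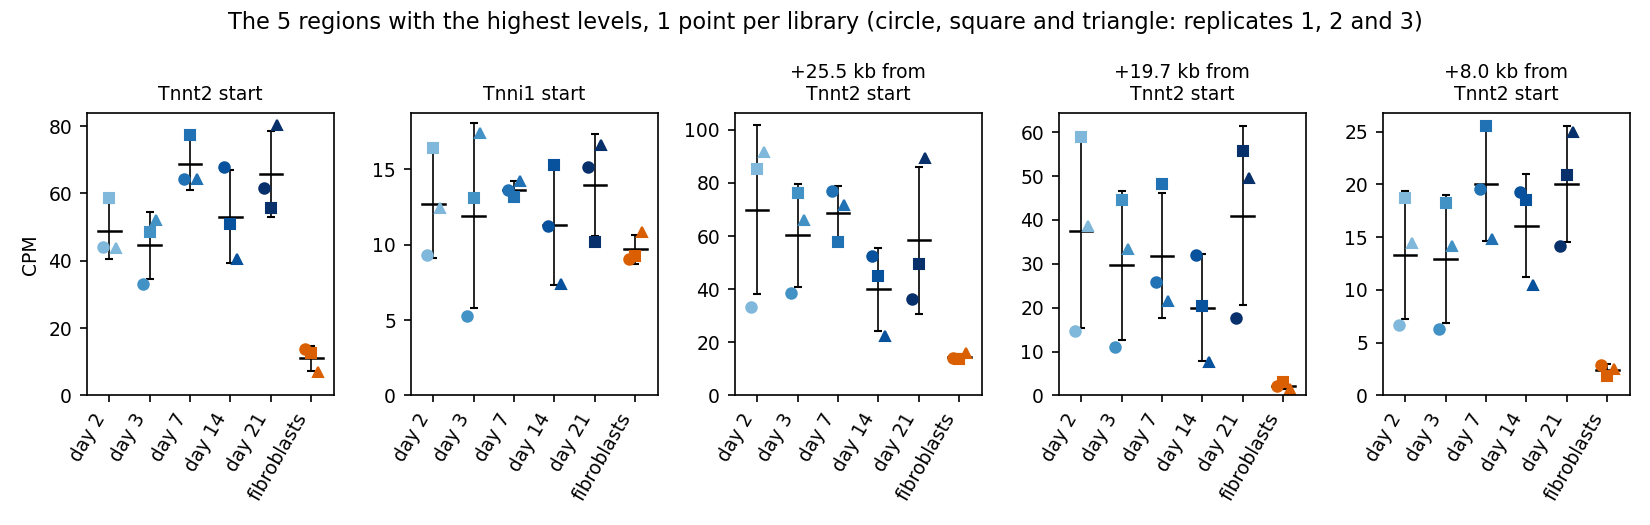
Level in CPM of the 5 regions with the highest mean, each panel with its own axis from 0. Points are libraries (circle, square and triangle for replicates 1, 2 and 3), lines the means and bars the SD (n = 3). All GMT libraries lie above the fibroblasts in 4 panels and overlap them at days 2, 3, 14 and 21 at the Tnni1 start.

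Among tested regions whose average log2 CPM, as edgeR computes it, was 0 or more, the 3 largest fitted rises at day 21 were downstream of Tnnt2. They came from narrow regions with few fibroblast counts. R72, 137764308 to 137764508, had no count in any fibroblast library and 0.223, 0.923 and 2.16 CPM in the day 21 libraries. This is at least 6.63-fold higher, taking 3 counts over the fibroblast group as the floor, and the same bound was 12.7 at day 2, where replicate 1 also had no count. R58, over Tnnt2 and also without fibroblast counts, was left out by the cutoff on average level. Its bound at day 21 was larger, at 7.66. R65, 137755506 to 137755706, had 5, 25 and 78 counts in the day 21 libraries, against 1 count in the 3 fibroblast libraries together, a ratio of summed counts of 53.7 after scaling (exact 95% interval 9.44 to 2142). Replicate 3 gave 78 of these counts, and the ratio of mean CPM, which weights libraries equally, was 35.2. R61, 137750028 to 137750728, had 27, 59 and 111 counts at day 21, against 3 counts in fibroblasts, a ratio of summed counts of 32.7 (11.02 to 159.8) and of mean CPM of 42.1. Both intervals and the floor cover counting error only. In R72, R65 and R61 all day 21 libraries lay above all fibroblast libraries.

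Lower levels at day 21 were found at the other end of the locus, upstream of Tnni1, in regions with at most 7.21 CPM in any fibroblast library. The day 21 mean was 0.432 times that of fibroblasts in R1 and in R6, and 0.663 times in R4. R1 (137670040 to 137670240) had a log2 fold change of -1.29 (SE 0.54) at day 21, with 0.669, 0.308 and 0.624 CPM against 1.82, 1.16 and 0.721 CPM in fibroblasts. R6 (137674887 to 137676238) had -1.25 (SE 0.47), with 1.89, 2.00 and 2.26 CPM against 6.20, 3.70 and 4.32 CPM in fibroblasts. R4 (137672640 to 137674066) had -0.58 (SE 0.31), with 3.68, 4.62 and 3.94 CPM against 5.93, 5.32 and 7.21 CPM in fibroblasts. Day 21 lay wholly below fibroblasts in all 3, and none was called at that day. R6 was called lower at day 21 with RLE size factors. In fits of 1 GMT day and fibroblasts alone, R4 and R6 were both called lower at days 7, 14 and 21, and R6 also at day 3. In the same stretch R10, 137679105 to 137680016, was called higher at every day but day 14, which was noted after its values were seen.

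Between GMT days, no region of the locus was called. Among all regions tested, the share called was 0% for day 3 against day 2 and 0.00829% for day 7 against day 3. It was 0% for day 14 against day 7, 0% for day 21 against day 14 and 1.44% for day 21 against day 2. In the same order, 3, 2, 4, 11 and 3 of the 41 regions had an unadjusted p under 0.05 in edgeR. Over all 144810 regions tested, 5247, 9196, 10373, 4757 and 19053 had one. DESeq2 likewise called none, with 1, 2, 3, 6 and 2 of the 41 at an unadjusted p under 0.05, and its counts over all regions were not taken. For day 21 against day 2 the fitted log2 fold change of R48 was 0.43 (SE 0.32) and that of R24 was 0.11 (SE 0.30), while the log2 ratio of the locus sums was -0.0014. These errors leave room for moderate changes at either gene's start, so a miss of the threshold does not show equal levels.

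The regions with the largest fitted differences between days 21 and 2 divide by position. R55, R49 and R56 lie inside Tnnt2, centred 9.13, 1.15 and 10.2 kb after its start, and had log2 fold changes of 0.92 (SE 0.41), 0.84 (0.40) and 0.66 (0.48). R1 and R6 upstream of Tnni1 had -1.43 (SE 0.53) and -0.92 (0.46), and R73, 32.4 kb after the Tnnt2 start, had -1.20 (0.71). R73 illustrates the spread at the far end: it had 1.28, 13.0 and 20.2 CPM in the day 2 libraries and 1.56, 2.62 and 10.1 in the day 21 libraries, against 1.92, 3.70 and 3.96 in fibroblasts. It overlapped fibroblasts at both days. The median log2 fold change from day 2 to day 21 was 0.47 over the 13 Tnnt2 regions and -0.46 over the 14 downstream regions. It was -0.48 over the 7 tested regions upstream of Tnni1, -0.27 over the 2 at Tnni1 and 0.11 over the 5 between the genes. Over all regions tested it was 0.018. Without replicate 1 of days 2 and 3, R6 was called lower at day 21 than at day 2, the only such call.

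Across the 18 libraries, the 3 regions outside the locus most like R48 in log2 CPM were 34269013 to 34271270 on chromosome 16 (Pearson r = 0.985), 193804810 to 193806323 on chromosome 1 (0.985) and 32457380 to 32458871 on chromosome 16 (0.984). Of the 40 other tested regions of the locus, R50 came closest (r = 0.970, rank 25 among all regions tested with R48 itself as 1), followed by R54 (0.936, rank 475) and R61 (0.932, rank 580), and 4 ranked in the first 1000. The Tnni1 start region R24 had r = 0.459 and rank 35646. The order was another one within the 15 GMT libraries, which leaves out the difference from fibroblasts. There r was 0.856, 0.905 and 0.855 for the 3 regions outside, while in the locus it was highest for R59 (0.900), R57 (0.843), R49 (0.835) and R54 (0.818), all over Tnnt2, with R50 at 0.721 and R24 at 0.697. These correlations are descriptions, since the points share libraries and their depth.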

How the data were processed

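The values are whole-number counts of reads per region that the authors deposited without normalization. Per the submitters' processing notes, Bowtie2, Picard, MACS2 and edgeR were used with build mm9, and no versions are named. How duplicates and the transposase offset were handled, and whether regions come from pooled data, is not stated in the labels or headers. These steps set region widths and hence counts. Coordinates are printed as the table gives them. Of 36 samples in the labels, the 18 with a column were used. The table as held covers chromosomes 1, 10 to 16 and part of 17, so library totals are sums over that part.

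From the counts, regions were filtered with filterByExpr (minimum count 10, minimum total 15), scaled by TMM and fitted with glmQLFit (robust, 1 mean per group, 12 residual degrees of freedom) in edgeR 4.0.16 under R 4.3.3. Each contrast was tested two-sided over 144810 regions. The common biological coefficient of variation was 23.8%. DESeq2 1.42.0 was an alternative. The test was also run on counts simulated with the fit's own spread and known changes in 200 regions. That setting held no libraries that stand apart, so it does not show how calls hold in these libraries. The members, lists and named regions were chosen with earlier results of these data known. Named by rule are the regions at both gene starts, the 5 of highest mean CPM, the 3 largest rises and falls (average log2 CPM of at least 0) at day 21 against fibroblasts and against day 2, and the 3 regions elsewhere most like the Tnnt2 start by Pearson correlation of log2 CPM (prior count 2). The alternatives were other scalings, filters, tools, thresholds, samples in the fit and a replicate block. No pair of libraries within a group agreed within sampling noise. The closest, fibroblast replicates 1 and 2, had a chi-square of 1.36 per degree of freedom. Against these, fibroblast replicate 3 had 12.2 and 13.6. Marker genes and other sarcomere genes were not analysed here, because no mm9 annotation was used.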

Additional observations from a re-analysis of the deposited data

How the results depend on the processing

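Library totals alone, which raised the median log2 fold change of all tested regions against fibroblasts to between 0.30 and 0.66, gave 2.78 at day 2 and 3.15 at day 21 for the Tnnt2 start, 0.97 and 1.05 for the Tnni1 start, and 2.13, 1.73, 1.55 and 2.10 for the locus sum at days 2, 7, 14 and 21 (log2 ratios to fibroblasts). At day 7 the sum's ratio was 1.54 with RLE size factors and 1.67 over tested regions alone. Over regions that overlap either gene it was 2.10, 1.68 and 2.06 at days 7, 14 and 21. No called value reversed.

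With each library left out in turn, called regions against fibroblasts numbered 19 to 29 at day 2, 16 to 25 at day 3, 20 to 24 at day 7, 11 to 24 at day 14 and 22 to 29 at day 21, and 0 to 0 between days. The log2 ratio of the sum to fibroblasts ran from 1.46 to 2.01 at day 2, 1.14 to 1.69 at day 3, 1.58 to 1.79 at day 7, 1.01 to 1.51 at day 14 and 1.41 to 1.99 at day 21, and from -0.25 to 0.22 between days 21 and 2. The Tnnt2 start ran from 1.98 to 2.31 at day 2 and 2.37 to 2.78 at day 21, and the Tnni1 start from 0.24 to 0.73 and 0.41 to 0.87. Without replicate 1 of days 2 and 3, 1 region was called between days 21 and 2.

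Of 45 correlations between deviations of same-numbered libraries, 2 exceeded 0.1 (range -0.157 to 0.321). Both were of days 2 and 3, at 0.321, 0.214 and 0.098 for replicates 1, 2 and 3. No pair of groups had all 3 above 0.1, so the numbers were not taken to pair libraries. A pairing of days 2 and 3 alone was not tested, and their contrast treats the libraries as independent. A replicate block gave 26, 22, 24, 20 and 28 calls against fibroblasts at days 2, 3, 7, 14 and 21. The depth of the locus, with as few as 359 counts in a library, limits what the narrow regions can show.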
